A study of Mus musculus with 24 samples.

Results

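Respiratory chain genes were taken from the deposited expression table as the protein-coding genes whose mouse symbols begin with Ndufa, Ndufb, Ndufc, Ndufs, Ndufv, Uqcr, Cox4 to Cox8 or Atp5, the Sdha to Sdhd genes, and the subunit genes of the mitochondrial genome (mt-Nd, mt-Co, mt-Cytb and mt-Atp). The rule found 107 genes of 54446 in the table, 94 nuclear and 13 mitochondrially encoded. Of these, 98 encode subunits of the 5 complexes: 43 of complex I (36 nuclear), 4 of complex II (all nuclear), 9 of complex III (8 nuclear), 23 of complex IV (20 nuclear) and 19 of complex V (17 nuclear). Ndufa4 and Ndufa4l2 were placed in complex IV, where the NDUFA4 protein sits despite its name. The other members were the 8 Ndufaf genes, which encode complex I assembly factors, and Atp5s, which was kept apart as no subunit. A further 13 genes with matching names were not protein-coding and were not members.

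RNA was measured by poly(A) RNA-seq in 24 mouse libraries of corpus callosum, a myelinated tract between the hemispheres. Cuprizone, which chelates copper and leads to the loss of oligodendrocytes, was used to induce demyelination, and some mice received an inhibitor of Bruton's tyrosine kinase (BTKi) once disease had been induced, according to the design text. The groups were cuprizone BTKi (n = 8), cuprizone vehicle (n = 8), naive BTKi (n = 4) and naive vehicle (n = 4). The labels leave unstated which inhibitor was used, its dose, the length of each treatment, and the strain, sex and age of the mice. They do not name separate animals either, so p-values here reflect only differences among these libraries, which may be technical.

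The respiratory chain passes electrons from NADH (complex I) and succinate (complex II) through ubiquinone to complex III, cytochrome c and complex IV, which hands them to oxygen. Complexes I, III and IV pump protons across the inner mitochondrial membrane, and complex V, the ATP synthase, uses the gradient to make ATP. Complex II is encoded wholly in the nucleus and the others need subunits from both genomes. Complex IV holds copper in its mitochondrially encoded core, and chaperones deliver that copper during its assembly.

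The table gives FPKM, reads scaled to the length of a gene and the size of a library, so levels of different genes are compared per length. The read totals behind the FPKM, estimated from the low values of genes with 1 annotated transcript, ran from 26474637 to 30978934 reads (median 30425586), and cuprizone BTKi 5 was the lowest. None of the 8 oligodendrocyte markers was at 0 throughout a group, and all 8 were called lower in both comparisons of cuprizone with naive tissue. Their summed level was 688 ± 205 FPKM in cuprizone BTKi and 584 ± 102 in cuprizone vehicle, against 1276 ± 25.3 in naive BTKi and 1744 ± 295 in naive vehicle (SD). Microglia markers summed to 279 ± 60.1 and 302 ± 109 FPKM in cuprizone BTKi and cuprizone vehicle, against 144 ± 6.42 and 142 ± 11.8 in naive BTKi and naive vehicle. Of 7 astrocyte markers 4 were called higher in each of these comparisons and 1 lower under vehicle, and their score (the mean centred log2 level) was 0.02 to 0.30 over the cuprizone libraries and -0.35 to -0.21 over the naive libraries, with no overlap. Cuprizone vehicle 1, 4 and 7 held little choroid plexus RNA (marker scores of -1.98, -2.60 and -2.59, where the other 21 libraries lay between -0.70 and 1.49). In bulk tissue, fewer cells of a type and less RNA per cell cannot be told apart.

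Subunits of the 2 genomes are shown first by sequence, because 7 of the 13 mitochondrially encoded genes have near-identical copies in the nuclear genome, and for 5 of these the copy took nearly all of the signal. The copies are pseudogenes in a single block of 4663 bases, chr1:24611535-24616197 on the minus strand (GRCm38, GENCODE M21), an insertion of mitochondrial DNA. The stretches below are 61 bases of a gene and its copy, read from the M21 transcripts and printed 5′ to 3′. The first pair is identical over 678 bases, and in the others a capital letter marks the base that differs, T3C for mt-Nd3 and A1066T for mt-Co1 (the mitochondrial base, its position from 1 at the first base of the mitochondrial gene, and the base of the copy).
mt-Atp6 (chrM:7927-7987, plus strand): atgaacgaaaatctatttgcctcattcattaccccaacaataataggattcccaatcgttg
Gm10925 (chr1:24614591-24614651, minus strand): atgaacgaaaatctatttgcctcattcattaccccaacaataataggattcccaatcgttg
mt-Nd3 (chrM:9459-9519, plus strand): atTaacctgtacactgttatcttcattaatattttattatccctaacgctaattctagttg
Gm28438 (chr1:24613059-24613119, minus strand): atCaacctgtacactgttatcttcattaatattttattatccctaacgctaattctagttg
mt-Co1 (chrM:6390-6450, plus strand): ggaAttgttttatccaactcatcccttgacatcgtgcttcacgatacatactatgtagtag
Gm29216 (chr1:24616128-24616188, minus strand): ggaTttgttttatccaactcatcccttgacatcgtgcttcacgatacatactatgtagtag

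The 5 mitochondrial genes whose copy spans nearly their whole length were listed at levels near those of rare transcripts, while the copies were among the highest values in the table. Over the 24 libraries mt-Atp6, a subunit of the proton channel of complex V, averaged 4.29 FPKM and its copy Gm10925 18434 FPKM. The core subunits of complex IV mt-Co2 and mt-Co3 averaged 1.36 and 0.502 FPKM, and their copies Gm28661 and Gm28437 averaged 17861 and 10495 FPKM. The complex I subunits mt-Nd3 and mt-Nd4l averaged 2.28 and 0.726 FPKM, and their copies Gm28438 and Gm10222 averaged 2929 and 2786 FPKM. By the estimated read totals, mt-Nd4l rested on a median of 6 reads (1 to 14) and mt-Co3 on 11.50 (3 to 30), against 24453 reads for Gm10222 and 248016 for Gm28437. The copies of mt-Co1 and mt-Nd4 cover only a part of the gene (31.3% and 63.6% of its length). These genes kept 12265 and 4242 FPKM, beside 16557 FPKM for Gm29216 and 6221 FPKM for Gm28439. No source states how reads that match both places were counted, so the low values of mt-Atp6, mt-Co2, mt-Co3, mt-Nd3 and mt-Nd4l are uncertain as levels of those genes. The levels of mt-Co1 and mt-Nd4 are uncertain too, over the part that the copy covers.

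Apart from these 5, the genes kept high values. The highest after mt-Co1 was mt-Cytb (cytochrome b of complex III, 9701 FPKM), followed by the complex I subunit mt-Nd1 (8190), the complex V subunit mt-Atp8 (6792) and the complex I subunits mt-Nd2 (6113), mt-Nd4 (4242) and mt-Nd5 (3705). The exception was mt-Nd6, the only subunit gene on the other strand of the mitochondrial genome, which averaged 7.29 FPKM with a median of 101 reads. The 7 genes with at least 3705 FPKM, mt-Co1, mt-Cytb, mt-Nd1, mt-Atp8, mt-Nd2, mt-Nd4 and mt-Nd5, are called well counted below. The term refers to their many reads only, since mt-Co1 and mt-Nd4 may lack reads that were counted in their copies.

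**Figure D1:**
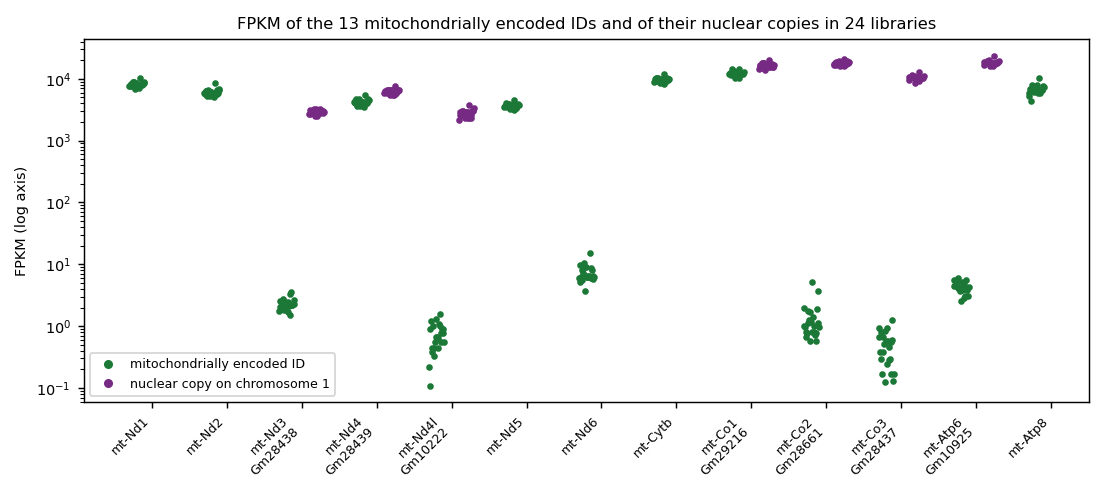
FPKM on a log axis of the 13 mitochondrially encoded genes (green) and of 7 nuclear copies (purple), with 1 point for each of the 24 libraries. The 5 genes with a copy over nearly their whole length average 0.502 to 4.29 FPKM, while their copies average 2786 to 18434 FPKM.

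The nuclear subunits were abundant and, in FPKM as deposited, even across groups. Differences between groups in the sums below were not examined under other scalings. Summed over the 85 nuclear subunits, the level was 8957 ± 302 FPKM in cuprizone BTKi and 8962 ± 308 in cuprizone vehicle, against 9032 ± 194 in naive BTKi and 8990 ± 162 in naive vehicle (SD). The 24 libraries ranged from 8527 to 9413 FPKM, a coefficient of variation of 2.86%, and the ranges of all 4 groups overlapped. Complex I subunits summed to 2552 ± 103 FPKM in cuprizone BTKi and 2547 ± 95.9 in cuprizone vehicle, against 2565 ± 45.6 in naive BTKi and 2575 ± 58.5 in naive vehicle. Complex IV summed to 2733 ± 91.8 FPKM in cuprizone BTKi and 2726 ± 85.0 in cuprizone vehicle, against 2749 ± 54.1 in naive BTKi and 2728 ± 84.5 in naive vehicle. Complex V summed to 2522 ± 84.7 FPKM in cuprizone BTKi and 2540 ± 113 in cuprizone vehicle, against 2560 ± 96.1 in naive BTKi and 2539 ± 33.6 in naive vehicle. The smaller complexes were as even: complex III summed to 877 ± 32.3 FPKM in cuprizone BTKi and 875 ± 33.2 in cuprizone vehicle, against 883 ± 36.0 in naive BTKi and 876 ± 15.6 in naive vehicle, and complex II lay between 258.1 and 288.1 FPKM in all 24 libraries. Complex IV held 30.3% to 30.5% of the nuclear sum on average in each group, complex I 28.4% to 28.6%, complex V 28.2% to 28.3%, complex III 9.74% to 9.79% and complex II 3.03% to 3.06%.

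The mitochondrially encoded genes varied more. Their sum was 51215 ± 3954 FPKM in cuprizone BTKi and 49024 ± 3387 in cuprizone vehicle, against 52937 ± 8632 in naive BTKi and 52735 ± 1384 in naive vehicle (SD, coefficient of variation 8.93% over the 24 libraries). Naive BTKi 1 stood apart with 65749.8 FPKM, and the other 3 naive BTKi libraries lay between 46916.4 and 49662.9, within the range of the cuprizone BTKi libraries (44667.9 to 56082.1). Adding the 7 copies gave 126781 ± 7550 FPKM in cuprizone BTKi and 122124 ± 7985 in cuprizone vehicle, against 130560 ± 18977 in naive BTKi and 129474 ± 3464 in naive vehicle. That was 26.8% and 25.95% of all FPKM in cuprizone BTKi and cuprizone vehicle, against 27.5% and 27.4% in naive BTKi and naive vehicle. The ratio of this sum to the nuclear sum was 14.2 ± 1.02 and 13.7 ± 1.20 in cuprizone BTKi and cuprizone vehicle, against 14.5 ± 2.29 and 14.4 ± 0.403 in naive BTKi and naive vehicle, and the groups overlapped. FPKM is per length, and the copies of mt-Co1 and mt-Nd4 are shorter than the genes. Reads in those copies therefore weigh more in this sum, its share and its ratio than they would at the genes' own length. No test between groups was made on sums.

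**Figure D2:**
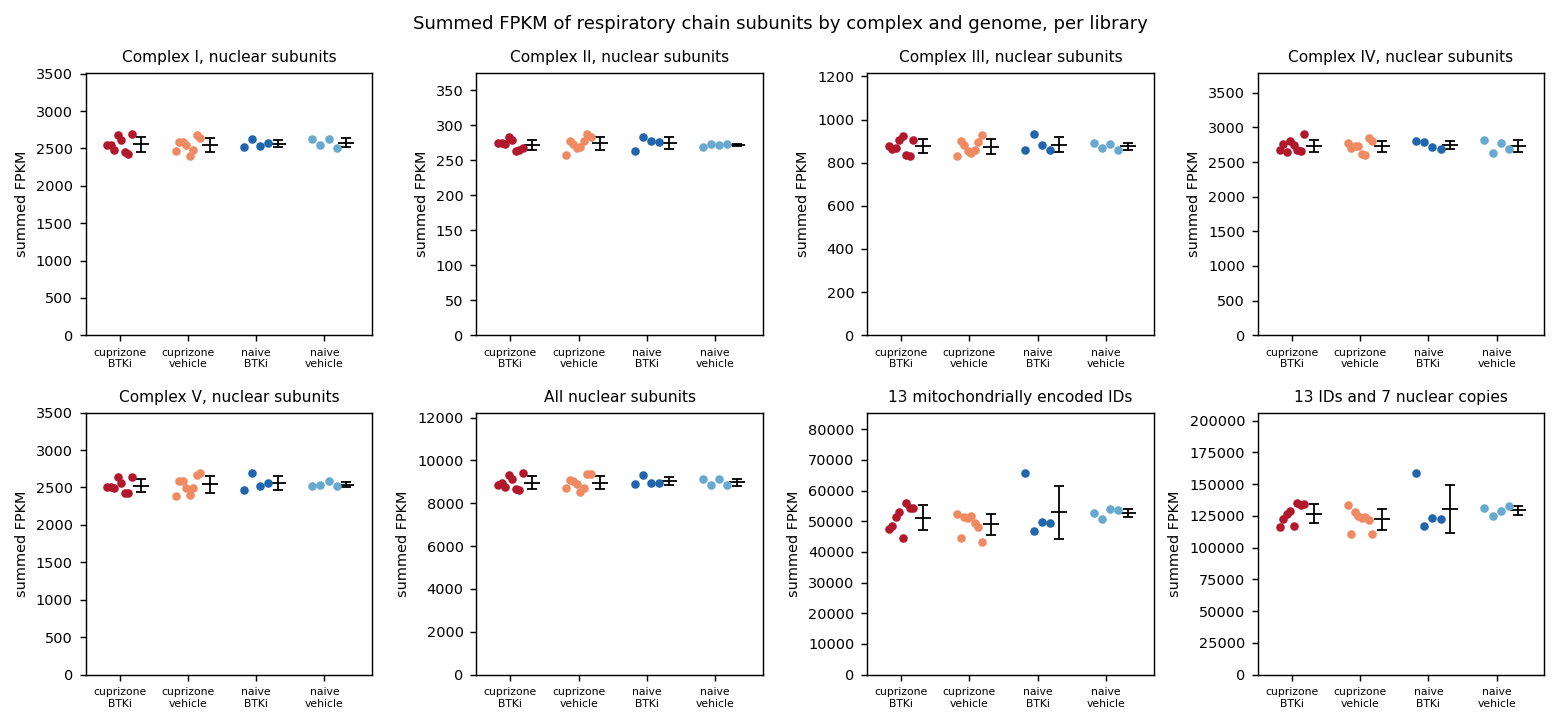
Summed FPKM per library of the nuclear subunits of each complex, of all nuclear subunits, of the 13 mitochondrially encoded genes, and of these with the 7 nuclear copies. Points are libraries, bars the mean ± SD, axes start at 0, and the 4 groups overlap in every panel, with naive BTKi 1 the highest point in both mitochondrial panels.

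Within the complexes the members differed in level far more than the groups did. Complex I nuclear subunits ranged from 26.8 FPKM (Ndufs4, an accessory subunit) to 150 FPKM (Ndufb9, an accessory subunit of the membrane arm), with a median of 70.7. Complex II ranged from 32.6 FPKM (Sdhd, a membrane anchor) to 113 FPKM (Sdha, the flavoprotein that oxidises succinate). Complex III ranged from 49.1 FPKM (Uqcrfs1, the Rieske iron-sulfur protein) to 137 FPKM (Uqcrb, a ubiquinone-binding subunit). Complex IV reached 498 FPKM (Cox8a) and complex V 514 FPKM (Atp5b, the catalytic beta subunit). Of the 107 genes, 104 had a mean of at least 0.5 FPKM and were tested. The others were Cox7b2, the testis form of Cox7b, at a mean of 0.335 FPKM, Cox8c, another testis form, at 0 in all libraries, and a read-through gene under the name Atp5o at 0.0245 FPKM.

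Cuprizone was compared with naive tissue under vehicle in a limma fit over all 15216 genes that passed the filter. Of the chain, 3 of the 104 tested members were higher (Cox7a2l, Atp5k and Cox4i1) and 1 was lower (Cox6a1) at an adjusted p under 0.05, with fitted changes of no more than 1.18-fold. Among all genes 10.2% were higher and 4.82% lower. That split depended on the scaling: it was 1555 higher and 733 lower as deposited, and 1228 higher and 978 lower after median ratio scaling. The members' own split turned with it: that scaling gave 2 higher and 4 lower. Without naive vehicle 4 it was 1 higher and 2 lower. The median log2 change was -0.02 over the members and 0.03 over all genes, and 41 members had a positive and 63 a negative change. For 87 members (83.7%) the 95% interval of the change lay within 0.32 on the log2 scale either way, against 67.5% of all genes. Among the nuclear subunits of at least 20 FPKM it did for 73 of 75, and their changes ran from -0.15 (Ndufv3, an accessory subunit of the NADH-binding module) to 0.24 (Atp5k). These shares depend on precision too, since all genes reach down to a mean of 0.5 FPKM. The median distance from a change to either end of its interval was 0.116 over the members and 0.147 over all genes. Members had the narrower intervals in the comparisons below as well, so the shares do not compare stability alone.

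Cox7a2l (chr17:83501918-83517330, minus strand, GRCm38) is a relative of the Cox7a subunits. It is described as a factor that joins complexes III and IV into supercomplexes, which were not measured here. Cox7a2l rose. Under cuprizone vehicle it ran from 94.6 to 107.9 FPKM (median 101.1, n = 8), against 91.6, 89.7, 91.4 and 85.3 FPKM in the naive vehicle libraries. All 8 cuprizone vehicle libraries lay above all 4 naive vehicle libraries. How many of all genes separate in this way was not counted. The change was 0.16 on the log2 scale (SE 0.04, adjusted p = 0.00426, limma). Under BTKi it also rose, with values between 87.9 and 103.7 FPKM (median 94.7) in cuprizone BTKi, against 87.7, 89.3, 86.4 and 88.3 FPKM in naive BTKi (log2 change 0.13, SE 0.04, adjusted p = 0.0405). There the groups overlapped by the lowest cuprizone BTKi library, and the call was lost in 10 of 35 alternatives (adjusted p up to 0.137). Among them were leaving out any 1 of the 4 naive BTKi libraries and median ratio scaling (adjusted p = 0.121).

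Atp5k, the e subunit of ATP synthase, which takes part in its dimers (chr5:108433244-108434448, minus strand), had the highest fold change of the nuclear members called. It ran from 118.4 to 147.9 FPKM (median 132) in cuprizone vehicle, against 108.5, 111.0, 124.1 and 102.8 FPKM in naive vehicle. The ranges overlapped only through naive vehicle 3. The log2 change was 0.24 (SE 0.07, adjusted p = 0.0178, 1.18-fold), and it missed the threshold without naive vehicle 1 (adjusted p = 0.0505) or naive vehicle 4 (0.0876).

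Cox4i1, the widely expressed form of the regulatory subunit COX4 (chr8:120668222-120674207, plus strand), ran from 346.7 to 390.1 FPKM (median 370) in cuprizone vehicle, against 350.5, 337.6, 344.0 and 327.2 FPKM in naive vehicle. The groups overlapped at their edges. It rose by 0.12 on the log2 scale (SE 0.04, adjusted p = 0.0243), but the call was lost after median ratio scaling (adjusted p = 0.112), with the replicate block (0.0508), without naive vehicle 2 (0.0608) or 4 (0.104), and without the 3 libraries poor in choroid plexus RNA (0.111).

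Cox6a1, the widely expressed form of COX6A (chr5:115345642-115348981, minus strand), fell. It ran from 262.6 to 327.5 FPKM (median 301.1) in cuprizone vehicle, against 340.2, 324.6, 331.0 and 322.0 FPKM in naive vehicle, and 1 cuprizone vehicle library reached the naive vehicle range. The log2 change was -0.14 (SE 0.05, adjusted p = 0.0344), and the call was lost in 10 of 35 alternatives, among them leaving out any 1 naive vehicle library (adjusted p from 0.0518 to 0.101). Oligodendrocyte, microglia and astrocyte markers differed between the same groups by the sums and scores given above, and their part in these changes was not tested.

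**Figure D3:**
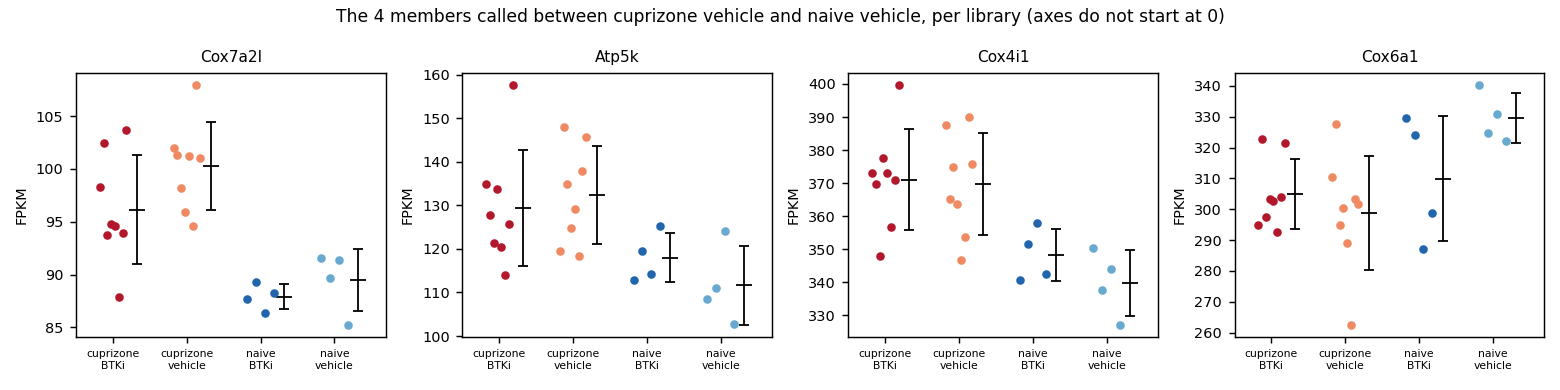
FPKM per library of the 4 members called between cuprizone vehicle and naive vehicle, with bars for the mean ± SD and axes that do not start at 0. For Cox7a2l the cuprizone vehicle points (94.6 to 107.9) lie above the naive vehicle points (85.3 to 91.6), and for the other 3 genes the ranges meet.

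By complex, the 18 tested nuclear subunits of complex IV had 2 called higher and 1 lower (median log2 change -0.04), and the 16 of complex V had 1 called higher (median -0.02). Beside the 10.2% higher and 4.82% lower among all genes, the counts for complex IV are near the background. Complex I had 0 of 36 nuclear subunits called by limma, a median of -0.01, and, before adjustment, p under 0.05 for 1 that was higher and 4 that were lower. Nearest to the threshold was Ndufb10, an accessory subunit of the membrane arm, with a log2 change of -0.11 (adjusted p = 0.0560). It was called in 11 alternatives (lowest adjusted p = 0.0103), and the accessory subunits Ndufb6, Ndufa3 and Ndufc2 were called in 3, 1 and 1. Complex III had 0 of 8 called, a median of 0.01, and p under 0.05 before adjustment for 1 (Uqcrb, lower, called in 2 alternatives).

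None of the 4 genes of complex II was called, with 1 lower at an unadjusted p under 0.05 (Sdhc). Complex II, the part of the chain that also belongs to the tricarboxylic acid cycle, had changes of at most 0.09 on the log2 scale. Sdha averaged 114 ± 3.53 FPKM in cuprizone vehicle and 112 ± 1.41 in naive vehicle, and Sdhb, the iron-sulfur subunit, 84.0 ± 4.92 in cuprizone vehicle and 82.0 ± 3.24 in naive vehicle. The anchors Sdhc and Sdhd averaged 43.6 ± 2.28 and 33.3 ± 2.80 FPKM in cuprizone vehicle, against 46.5 ± 2.05 and 31.5 ± 1.64 in naive vehicle (SD, n = 8 and 4). Their log2 changes were 0.02, 0.03, -0.09 and 0.08 for Sdha, Sdhb, Sdhc and Sdhd, with adjusted p from 0.176 to 0.721 in limma. The most abundant nuclear subunit of each other complex was not called either, with log2 changes of 0.02 for Ndufb9, -0.15 for Uqcrb, -0.04 for Cox8a and -0.03 for Atp5b (adjusted p from 0.117 to 0.803).

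All 7 well counted mitochondrially encoded genes had a negative change in cuprizone vehicle, and none was called. mt-Nd2 averaged 5762 ± 354 FPKM in cuprizone vehicle and 6520 ± 407 in naive vehicle (log2 change -0.18, SE 0.09, adjusted p = 0.195), and mt-Nd4 4022 ± 327 in cuprizone vehicle and 4493 ± 164 in naive vehicle (-0.16, adjusted p = 0.217). mt-Nd1 averaged 7763 ± 634 FPKM in cuprizone vehicle and 8548 ± 201 in naive vehicle (-0.14, adjusted p = 0.242). The catalytic subunit mt-Co1 averaged 11768 FPKM in cuprizone vehicle and 12267 FPKM in naive vehicle (-0.06, adjusted p = 0.650, 95% interval -0.23 to 0.10). mt-Cytb, mt-Nd5 and mt-Atp8 each had a log2 change of -0.09. These genes are transcribed together as long precursor RNAs and were read in the same libraries, so their common sign is not 7 separate observations. The other 6 mitochondrial genes, all of few reads, had changes from -0.26 (mt-Co2, SE 0.32) to 0.04 (mt-Co3, SE 0.25), and none was called. Of the 7 nuclear copies 6 were negative too, from -0.25 to 0.01, with a smallest adjusted p of 0.109.

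**Figure D4:**
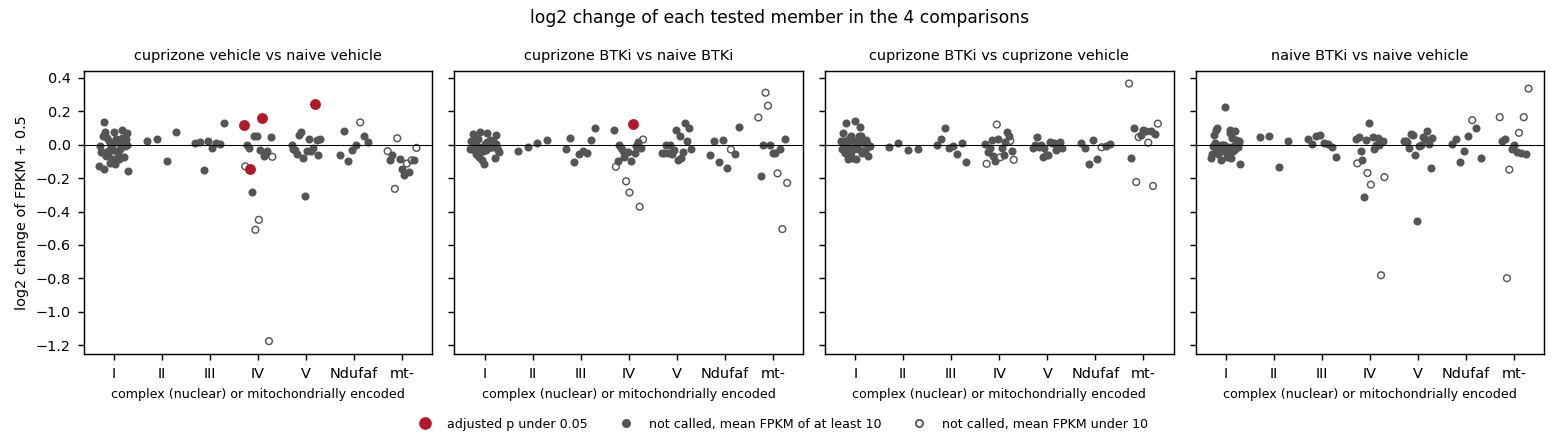
log2 change of FPKM + 0.5 for each tested member, by complex for nuclear subunits, for the complex I assembly factors (Ndufaf) and for the mitochondrially encoded genes (mt-), in 4 comparisons. Red points passed the test, open points are genes with a mean under 10 FPKM, and the widest change between cuprizone vehicle and naive vehicle, -1.18 for Cox8b, is an open point.

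Forms of complex IV subunits known from other tissues were rare and more variable. Cox6a2 and Cox8b, the heart and muscle forms, made up 3.60% to 4.31% of Cox6a1 and Cox6a2 together and 0.457% to 1.09% of Cox8a and Cox8b together as group means. The lung form Cox4i2 made up 0.413% to 0.558% of the Cox4i pair, the muscle form Cox7a1 1.60% to 2.35% of Cox7a1 and Cox7a2, the testis form Cox6b2 1.099% to 1.68% of the Cox6b pair, and Ndufa4l2, a hypoxia-induced relative, 1.49% to 1.81% of the Ndufa4 pair. The c subunits of ATP synthase, encoded by Atp5g1, Atp5g2 and Atp5g3 with a common mature protein, averaged 119, 10.2 and 172 FPKM over the 24 libraries. The level of Atp5g2 is uncertain, since it is identical over 645 bases to Gm10175, which averaged 88.6 FPKM. None of Cox6a2, Cox8b, Cox4i2, Cox7a1, Cox6b2, Ndufa4l2 and the Atp5g genes was called in any comparison, and Cox6a2 was called between cuprizone vehicle and naive vehicle in 2 alternatives.

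Cox8b ran from 0.273 to 4.32 FPKM (median 2.89) in cuprizone vehicle, against 2.98, 6.42, 5.86 and 6.499 FPKM in naive vehicle. The fitted log2 change was -1.18 (SE 0.50, adjusted p = 0.122), the widest of any member in this comparison, and the ranges overlapped. The 3 libraries poor in choroid plexus RNA, cuprizone vehicle 1, 4 and 7, had 1.29, 0.273 and 0.633 FPKM, and naive BTKi 2, with the highest choroid plexus score (1.49), had the highest value, 10.5 FPKM. Values were also low, 0.548 and 0.735 FPKM, in cuprizone BTKi 7 and naive BTKi 3, whose scores were -0.33 and -0.70. Cox6a2 averaged 12.1 ± 2.09 FPKM in cuprizone vehicle and 14.9 ± 3.21 in naive vehicle (log2 change -0.28, adjusted p = 0.0920). Its highest value, 19.3 FPKM, was in naive vehicle 2, which also had the highest striatal neuron score (1.60). Other libraries did not follow that order: the next highest, cuprizone vehicle 8 with 16.2 FPKM, had a score of -0.28, and cuprizone BTKi 7, with the lowest score (-1.01), had 12.3 FPKM. All 8 striatal neuron markers were called lower in cuprizone vehicle than in naive vehicle, and all 7 choroid plexus markers had negative changes of which none was called. The part of neighbouring tissue in both genes was not tested.

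**Figure D5:**
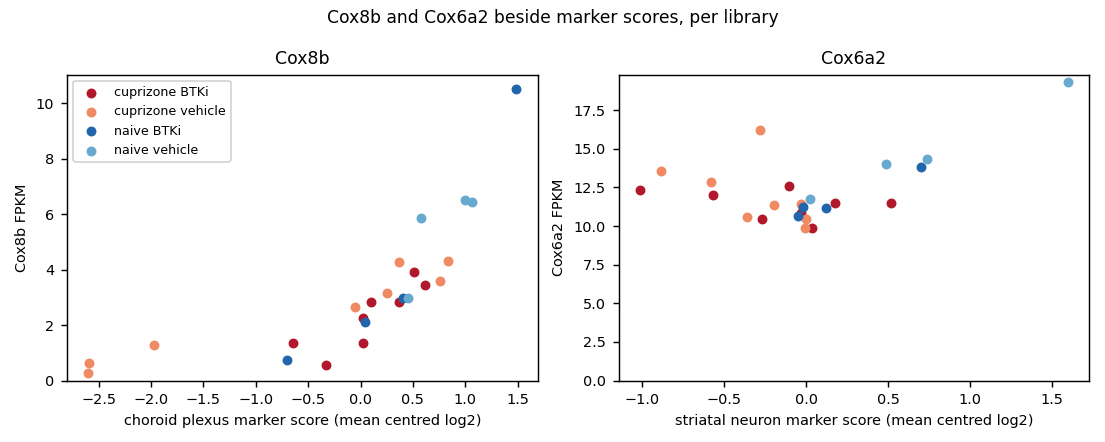
Left, Cox8b FPKM of each library against its choroid plexus marker score, and right, Cox6a2 FPKM against the striatal neuron marker score, coloured by group (scores are mean centred log2 levels). The 3 cuprizone vehicle libraries with scores of -1.98 and below on the left have 0.273 to 1.29 FPKM, and naive vehicle 2 is the highest point on the right with 19.3 FPKM, while cuprizone vehicle 8, with 16.2 FPKM, has a score of -0.28.

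Cuprizone was next compared with naive tissue under BTKi. Of the 104 members 1 was higher, Cox7a2l as given above, and 0 were lower, where all genes gave 6.11% higher and 1.77% lower. Without adjustment, limma gave 2 higher and 4 lower at a p under 0.05. The median log2 change was -0.02 over the members and 0.02 over all genes, and the 95% interval lay within 0.32 either way for 91 members (87.5%), against 72.1% of all genes. Cox4i1 averaged 371 ± 15.1 FPKM in cuprizone BTKi and 348 ± 7.97 in naive BTKi (log2 change 0.09, adjusted p = 0.154), Atp5k 129 ± 13.3 in cuprizone BTKi and 118 ± 5.63 in naive BTKi (0.13, adjusted p = 0.345), and Cox6a1 305 ± 11.4 in cuprizone BTKi and 310 ± 20.3 in naive BTKi (-0.02, adjusted p = 0.859). Whether the cuprizone change differed between drug and vehicle is the same contrast as the difference of the BTKi effects below, where none of these genes passed. Among the well counted mitochondrial genes 5 of 7 changes were negative and all lay between -0.19 and 0.03.

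No member was called for an effect of the inhibitor. Between cuprizone BTKi and cuprizone vehicle 0 of 104 members were higher and 0 lower, where all genes gave 0.0394% and 0.138%, so a count of 0 is near the background. Before adjustment limma gave p under 0.05 for 2 members that were higher and 3 that were lower. The smallest p was that of mt-Atp6, with 5.61, 4.47, 4.58, 4.64, 5.38, 4.80, 4.20 and 5.93 FPKM in cuprizone BTKi, against 4.03, 3.71, 4.10, 2.55, 3.86, 5.09, 3.92 and 2.89 FPKM in cuprizone vehicle (log2 change 0.37, SE 0.11, adjusted p = 0.245). The groups overlapped, and its copy Gm10925, which holds nearly all of the signal, had a log2 change of 0.07 (adjusted p = 0.837). The 95% interval lay within 0.32 either way for 94 members (90.4%), for all 75 nuclear subunits of at least 20 FPKM and for all 7 well counted mitochondrial genes, against 85.6% of all genes.

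In naive tissue, with fewer libraries, the members were not called either. Between naive BTKi and naive vehicle 0 members were higher and 0 lower (all genes, 0.105% and 0.112%), and before adjustment limma gave p under 0.05 for 2 that were higher and 3 that were lower. The 95% interval lay within 0.32 either way for 85 members (81.7%), against 65.7% of all genes. The mitochondrial genes in naive BTKi rest partly on library 1: mt-Nd2 had 8509 FPKM there and 5582 to 5789 FPKM in the other naive BTKi libraries, against 5965 to 6944 FPKM in naive vehicle. In the difference of the 2 BTKi effects 0 members were higher and 0 lower (all genes, 0.00657% and 0.118%), with 0 at an unadjusted p under 0.05 in limma, and the interval lay within 0.32 either way for 75 members (72.1%), against 54.0% of all genes. For Cox7a2l, Atp5k, Cox4i1 and Cox6a1 that difference was -0.04, -0.11, -0.03 and 0.12 on the log2 scale (adjusted p from 0.557 to 0.883).

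Genes that build and serve the chain were taken from 6 lists. In cuprizone vehicle against naive vehicle, where all genes gave 10.2% higher and 4.82% lower, none of the 17 tested complex I assembly factors passed, among them the 8 Ndufaf members, whose log2 changes ran from -0.10 to 0.13. None of 13 assembly factors of complexes II, III and V passed, nor any of 12 other chain genes outside the rule, such as Cyc1, the cytochrome c1 of complex III (71.5 ± 4.45 FPKM in cuprizone vehicle and 74.2 ± 2.97 in naive vehicle), and Cycs, cytochrome c (31.4 ± 2.62 in cuprizone vehicle and 33.6 ± 1.88 in naive vehicle). Atp5s had a log2 change of 0.07 and was not called. Of 24 genes of complex IV assembly and copper delivery 1 fell, Cox20, a chaperone of the copper-binding subunit COX2, at 23.0 ± 2.25 FPKM in cuprizone vehicle and 26.9 ± 1.13 in naive vehicle (log2 change -0.23, SE 0.08, adjusted p = 0.0430). The copper chaperones did not pass: Cox17 averaged 51.1 ± 2.68 FPKM in cuprizone vehicle and 48.9 ± 1.05 in naive vehicle (0.06, adjusted p = 0.523), Sco1 2.95 ± 0.309 in cuprizone vehicle and 3.14 ± 0.168 in naive vehicle (-0.08, adjusted p = 0.410) and Sco2 8.83 ± 0.792 in cuprizone vehicle and 8.39 ± 0.338 in naive vehicle (0.07, adjusted p = 0.533).

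Of 25 genes of mitochondrial gene expression and biogenesis 2 rose and 1 fell in cuprizone vehicle, shares near those of all genes. Pprc1, a coactivator of the PGC-1 family, averaged 8.43 ± 0.655 FPKM in cuprizone vehicle and 6.37 ± 0.350 in naive vehicle (log2 change 0.38, SE 0.06, adjusted p = 0.000111). Ppargc1b, another coactivator of that family, averaged 1.91 ± 0.131 in cuprizone vehicle and 1.62 ± 0.0631 in naive vehicle (0.19, adjusted p = 0.0432), and Mterf3, a repressor of mitochondrial transcription, fell to 8.92 ± 0.656 in cuprizone vehicle, against 9.95 ± 0.292 in naive vehicle (-0.15, adjusted p = 0.0454). Ppargc1a and the mitochondrial DNA packaging factor Tfam had log2 changes of -0.04 and 0.05 (adjusted p = 0.726 and 0.721). Of 18 tricarboxylic acid cycle genes only Suclg2, a subunit of the GTP-forming succinyl-CoA ligase, rose, to 7.04 ± 0.642 FPKM in cuprizone vehicle, against 6.11 ± 0.190 in naive vehicle (0.19, adjusted p = 0.0252). It also rose in cuprizone BTKi, at 7.86 ± 0.284 FPKM, against 5.90 ± 0.340 in naive BTKi (0.39, SE 0.06, adjusted p = 4.79e-05). There Gabpa, the ETS factor also called nuclear respiratory factor 2 alpha, averaged 7.34 ± 0.363 FPKM in cuprizone BTKi and 6.01 ± 0.502 in naive BTKi (0.27, adjusted p = 0.00308). No gene of these lists was called by limma between cuprizone BTKi and cuprizone vehicle or between naive BTKi and naive vehicle, and at the all-gene shares of 0.0394% and 0.138%, and of 0.105% and 0.112%, a count of 0 is near the background.

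The promoters of the called genes Cox7a2l, Atp5k and Cox6a1 were read for the motif of nuclear respiratory factor 1 (NRF1), a regulator of many nuclear chain genes. Cox4i1, also called, had no entry among the RefSeq promoters, so its promoter was not read. Of the 85 nuclear subunits 68 were matched in the RefSeq promoter table (GRCm38.p6). In the 250 bases before the start, on either strand, the motif of GCGCA, any base, then GCGC occurred in 12 of the 68 (17.6%), against 3.86% of 27025 promoters. The ETS core CCGGAAG occurred in 11 (16.2%), against 7.05%, and TGATGNAA, a stress-response element bound by ATF4 and CHOP, in 0, against 3.53%. None of the 3 motifs lies within another. Atp5k holds 1 NRF1 match and Cox6a1 holds 2, Cox6a1 also holds 1 ETS match outside the printed stretch, and no match to the 3 motifs was found in this window of Cox7a2l. The stretches around the matches are shown because one gene rose and the other fell, and capitals mark the NRF1 matches, 50 to 41 bases before the start of Atp5k and 162 to 153 and 117 to 108 bases before that of Cox6a1. These distances run from the RefSeq starts, which for both genes lie downstream of the GENCODE starts given above, so that the Atp5k match, all but its first base, lies inside the gene by the GENCODE coordinates.
Atp5k (chr5:108434430-108434459, minus strand): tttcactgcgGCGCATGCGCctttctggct
Cox6a1 (chr5:115348982-115349138, minus strand): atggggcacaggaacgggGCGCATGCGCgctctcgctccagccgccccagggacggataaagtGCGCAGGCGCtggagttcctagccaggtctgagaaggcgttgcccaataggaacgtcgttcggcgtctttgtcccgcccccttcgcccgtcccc

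Nuclear members can also share reads with copies. Ndufb4 (29.1 FPKM) is identical over 390 bases to Ndufb4c (103 FPKM), and Atp5g2 (10.2 FPKM) over 645 bases to Gm10175 (88.6 FPKM), so both genes' levels are uncertain. Neither gene nor its copy was called in the comparison of cuprizone vehicle with naive vehicle.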

How the data were processed

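The authors deposited 1 table of FPKM values for 54446 Ensembl gene IDs and 24 libraries. Per the labels' protocols, the Qiagen RNeasy Micro kit yielded the RNA and the TruSeq stranded mRNA kit the libraries. The aligner, counting tool and genome build: not given in the sources used here. FPKM falls for every gene when others take more of a library, and a poly(A) library weighs mitochondrial RNA by its tails. Symbols and coordinates came from GENCODE M21 (GRCm38), which held 53229 IDs with the same version and 101 of the 107 members. Tests used limma 3.58.1 (R 4.3.3) on log2 of FPKM plus 0.5, for the 15216 genes whose mean reached 0.5 FPKM. All 4 groups entered 1 model with a trended prior variance, and p-values were adjusted by Benjamini-Hochberg within each of 5 comparisons. Fold changes are on that scale and understate those of low genes. SE values are on the log2 scale. Depth was estimated from steps of 1 read: 87.5% to 89.7% of values of up to 5 reads in 33354 genes with 1 transcript were whole within 0.05 reads. No count test was run, since FPKM is not a count. The 68 replicate pairs within groups differed by an SD of log2 differences of 0.208 to 0.335, so no group held 1 library deposited again. Libraries of different groups were not compared in this way. Copies were found with blastn 2.17.0. Python 3.11.15, pandas 2.3.3 and matplotlib 3.10.9 handled tables and plots. The fit was tested on simulated data.

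The members, gene lists and tests were chosen with earlier results of these data known. Genes were named if called, if mitochondrially encoded, if an Sdh gene, the most abundant nuclear subunit of a complex or one of the alternative forms listed, or if under the filter, with up to 4 called genes of each pathway list. Other genes named, at the ends of ranges or near the threshold, and Cox17, Sco1, Sco2, Cyc1, Cycs, Tfam and Ppargc1a as known members of their lists, were picked with their values in view. Alternatives were other scalings, pseudocounts of 0.1 and 1, no filter and a filter of 2 FPKM, a fit of only the compared groups, each library left out, and a replicate block. A scaling on genes outside the mitochondrial chromosome and its copies, and leaving out 3 libraries poor in choroid plexus RNA, were chosen after seeing the data.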

Additional observations from a re-analysis of the deposited data

Results flagged for a closer look

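Of 180 groups of 4 or 8 libraries examined for a single library far from the rest (37 named members and 8 sums in 4 groups), 15 (8.33%) held one. Chance gives about 1 in 20 for independent groups. These groups share libraries, and the sums hold named members, so the rates cannot be compared. Naive BTKi 1 accounted for 8 of the 15, all mitochondrially encoded genes or sums that hold them, and was the highest of its group in each. It had 10357.2 FPKM of mt-Nd1, against 7828 to 8191 in the other 3 naive BTKi libraries, 8509 FPKM of mt-Nd2, against 5582 to 5789, and 5499 FPKM of mt-Nd4, against 3870 to 4098. It also had 4610 FPKM of mt-Nd5, against 3375 to 3416, 11844.8 FPKM of mt-Cytb, against 8932 to 9365, and 10411.6 FPKM of mt-Atp8, against 5932 to 6629. The sum of the 13 mitochondrially encoded genes was 65749.8 FPKM in it, and with the 7 nuclear copies 158724 FPKM. Its nuclear subunits held the lowest share of FPKM of all 24 libraries, 1.80%.

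Naive BTKi 2 was the highest of its group in Atp5b (549.1 FPKM, against 518 to 522 in the others) and in the sum of nuclear subunits (9322 FPKM, against 8913 to 8953). Sdhb was highest in cuprizone BTKi 4 at 90.64 FPKM (82.0 to 86.1 in the others) and in cuprizone vehicle 7 at 94.57 FPKM (76.9 to 84.5 in the others). mt-Co2 was highest in cuprizone vehicle 5 at 5.141 FPKM (0.577 to 1.71 in the others), a gene of a median of 21 reads whose copy took nearly all the signal. Ndufa4 was lowest in cuprizone vehicle 1 at 162.6 FPKM (183 to 198 in the others), and Cox6b1 was highest in naive vehicle 1 at 256.3 FPKM (233 to 237 in the others). None of these genes was called in any comparison.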

How the results depend on the processing

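The counts of members called were 0 in both directions under every alternative run (35, or 34 for the difference of effects) for cuprizone BTKi against cuprizone vehicle, for naive BTKi against naive vehicle and for the difference of these effects, and 0 lower for cuprizone BTKi against naive BTKi. For cuprizone vehicle against naive vehicle the members called lower (1 in the report) were 4 after median ratio scaling, 3 after quantile normalization, 2 with the total without the mitochondrial chromosome, 4 with the total without that chromosome and its copies (chosen after seeing the data), 0 with no filter and 0 with only the 2 groups fitted, and 0 to 2 with each library left out. The members called higher (3) were 1 to 3 with each library left out, with 1 without naive vehicle 4. For cuprizone BTKi against naive BTKi the members called higher (1) were 0 after median ratio scaling, 2 after quantile normalization, 0 with no filter, 0 with only the 2 groups, and 0 to 1 with each library left out. Cox7a2l stayed called in cuprizone vehicle in all 35 alternatives (adjusted p from 0.00226 to 0.0296). Cox4i1 lost its call in 7 (adjusted p from 0.00239 to 0.112) and Cox6a1 in 10 (0.00866 to 0.101), with direction kept. Ndufb10, named after its values were seen, was called lower in 11 alternatives. The nuclear complex II sum in naive vehicle was 273.87 FPKM with the total without the mitochondrial chromosome and its copies, against 271.977 as deposited. The cause was not tested in any of these.

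Replicate numbers were shared by the groups, but same-numbered libraries did not deviate together throughout: 2 of 4 pairs in cuprizone and naive vehicle, 0 of 4 in cuprizone and naive BTKi, 3 of 8 in the cuprizone groups and 0 of 4 in the naive groups correlated above 0.1, and 4 of 8, 0 of 8, 3 of 16 and 4 of 8 libraries correlated best with their own number. With the replicate block, cuprizone vehicle against naive vehicle gave 2 members higher and 1 lower (Cox4i1 and Cox6a1 lost their calls, with adjusted p = 0.0508 and 0.0666, and 1 other was called lower), cuprizone BTKi against naive BTKi 1 higher and 0 lower, and the other comparisons 0. Among the tested members with an estimated read count, low counts limit mt-Nd4l, mt-Co3, mt-Co2, mt-Nd3 and Cox8b most. Cox4i2, Cox7a1, Ndufa4l2 and Cox6b2, at means of 1.70 to 3.26 FPKM, had no such estimate. Where the interval of a gene's change reached past 0.32 on the log2 scale, a change of at least that size was not excluded. Such a gene could still be called.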
